A study of Mus musculus with 4 samples.

Results

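The 10 genes described here belong to the BCL-2 family, the proteins that decide whether a cell keeps its mitochondria intact or dies by apoptosis. They were taken by symbol from the 50600 genes counted in the deposited files, and each symbol matched 1 gene. They are the survival genes Bcl2, Bcl2l1, Mcl1 and Bcl2a1b, the pore-forming effector genes Bax and Bak1, and the genes Bcl2l11, Bbc3, Pmaip1 and Bid, whose products share only the BH3 domain with the rest of the family. RNA was sequenced from mouse T-helper 17 (Th17) cells, CD4 T cells that secrete interleukin 17, and all 4 libraries form 1 group. They came from primary C57BL/6NJ cells, are numbered as biological replicates 1 to 4 and share 1 donor label, with sex given as not collected and age as unknown. The labels link a protocol for CD4 T cell differentiation, and the file headers add a mark of 72 hours and the word sorted. There is no second group, so genes were compared with each other within a library, and libraries with each other.

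Survival proteins hold the effectors BAX and BAK in check at the outer mitochondrial membrane. BH3-only proteins are induced or activated by stress, by DNA damage or by loss of cytokines, and they bind the survival proteins or switch on the effectors, after which cytochrome c leaks out and caspases are activated. In T cells, interleukin 7 and interleukin 2 are known to sustain BCL-2 and MCL-1, and BIM, the product of Bcl2l11, is known for removing activated T cells once a response ends.

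The libraries held 34542693, 23673174, 9382661 and 28629187 counted read pairs in replicates 1 to 4. Levels are given as TPM, transcript abundance scaled to the same total in every library, computed from the counts and the exonic length of each gene. All 5 T-cell markers and all 5 Th17 markers were at 1 TPM or more in every library, with the Th17 markers summing to between 17737 and 21203 TPM. Markers of B cells, neutrophils, monocytes and macrophages, and dendritic cells summed to at most 2.67 TPM in any library, and Ms4a1, S100a8, S100a9, Csf3r and H2-Aa had 0 counts. The natural killer genes Ncr1 and Klrb1c had 0 counts too, with Nkg7 at 6.53 to 13.2 TPM. Of the CD8 genes, Cd8a held 4 counts over all libraries and Cd8b1 lay at 11.2 to 15.4 TPM. Replicates 1 and 2 held 177 and 193 TPM of Xist, against 2.15 and 0.598 TPM in replicates 3 and 4. Y-linked Ddx3y showed the reverse, at most 0.165 TPM in the first pair and at least 55.2 TPM in the second, which goes against the shared donor label. Whether the libraries are separate cultures is not stated, so a p-value here covers the spread of these samples, and the spread within each of these pairs of libraries may be technical.

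All 10 genes were present at 1 TPM or more in every library, as were 47.6% of the 21764 protein-coding genes. Their mean levels ran from 3.74 TPM for Bcl2l11 to 279 TPM for Bax, with a median of 62.8 TPM. The median of the 10367 protein-coding genes that reached 1 TPM in every library was 32.0 TPM. Together the 10 genes took between 0.101% and 0.112% of all counts. In bulk RNA a lower level can come from fewer cells that express a gene or from less RNA per cell, and these cannot be told apart.

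**Figure D1:**
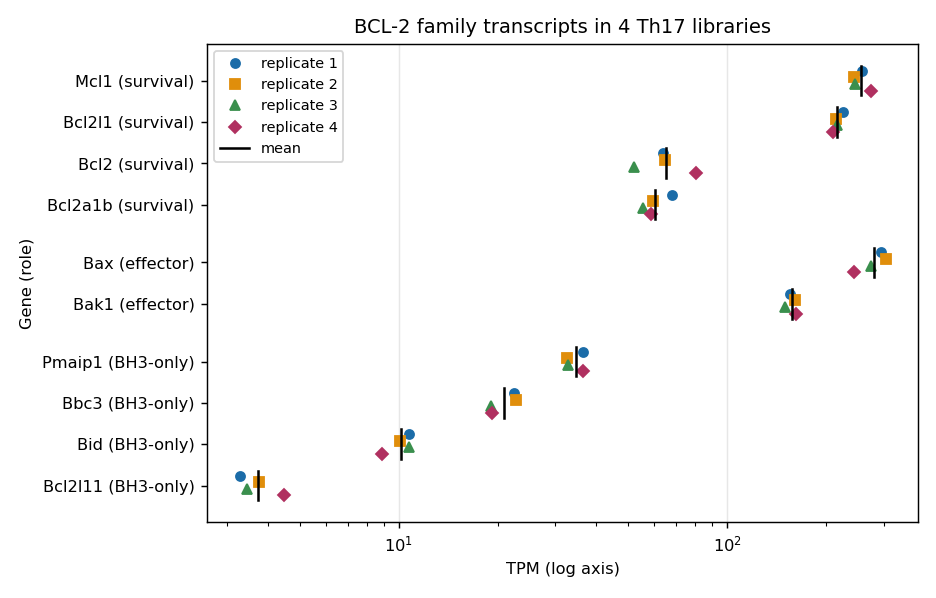
Level of each gene in TPM on a log axis, 1 point per library and a bar for the mean, grouped by role. The effectors and the survival genes Mcl1 and Bcl2l1 lie above every library of Bcl2 and Bcl2a1b, and the 4 BH3-only genes lie at 36.5 TPM or less.

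Among the survival genes, Mcl1 and Bcl2l1 had several times the TPM of Bcl2 and of Bcl2a1b as counted. Reads that Bcl2a1b shares with near-identical copies or with a neighbour were not counted, as described below. The 4 Bcl2a1 copies summed to 208 TPM, a sum that leaves out such reads too. Mcl1 encodes a short-lived protein that T cells need for survival at most stages. On chromosome 3 from 95658788 to 95663176 (mm10, ENSMUSG00000038612.16), it had 258, 243, 245 and 274 TPM in replicates 1 to 4. Bcl2l1 encodes BCL-XL, which is induced when T cells are activated. It lies on chromosome 2 from 152780668 to 152831728 (ENSMUSG00000007659.18) and had 226, 214, 217 and 210 TPM. Neither range overlapped that of Bcl2, which encodes the founding member of the family. On chromosome 1 from 106538178 to 106714274 (ENSMUSG00000057329.7), Bcl2 had 64.0, 64.5, 52.2 and 80.4 TPM, lowest in replicate 3 and highest in replicate 4.

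Within each library Mcl1 exceeded Bcl2 by 1.96 ± 0.189 on the log2(TPM + 1) scale (SD, n = 4), or 3.97 ± 0.540 times in TPM. Bcl2l1 exceeded Bcl2 by 1.73 ± 0.274 log2 units, or 3.40 ± 0.636 times. On CPM, which is not scaled by length, these differences were smaller, at 0.56 ± 0.192 and 0.75 ± 0.277 log2 units, since the exons of Bcl2 span 9157 bases. Both differences were positive in 4 of 4 libraries. For each, the exact sign-flip permutation test (two-sided) gave p = 0.13, or 0.139 after Benjamini-Hochberg adjustment over the 10 gene pairs compared. With 4 libraries this test cannot give a smaller p, and no pair could reach 0.05. Mcl1 was also above Bcl2l1 in 4 of 4 libraries, by 0.23 ± 0.102 log2 units (exact sign-flip p = 0.13, adjusted p = 0.139). This last order rests on the length used. With the length of the longest annotated transcript in place of all exons, 2568 bases against 4586 for Bcl2l1 and the same 3418 bases for Mcl1, the difference was -0.60 log2 units, and without any length correction it was -0.19.

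Bcl2a1b encodes A1, a survival protein induced by NF-kB in activated lymphocytes, and in the mouse it is 1 of several near-identical copies on chromosome 9. The coding sequences of the copies are shown because their likeness limits what could be counted. In the 60 coding bases below, the first of 516 without the stop codon, capitals mark a base that only that copy has at that position among the 3. This stretch was chosen because the 3 copies differ most there, at 6 of the 12 coding positions where any of them differ. The stretches lie at chr9:89199360-89199419 on the plus strand for Bcl2a1b, chr9:88731660-88731719 on the minus strand for Bcl2a1d and chr9:88957051-88957110 on the plus strand for Bcl2a1a (mm10, GENCODE mouse release 21).
Bcl2a1b: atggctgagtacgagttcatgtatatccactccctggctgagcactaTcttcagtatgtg
Bcl2a1d: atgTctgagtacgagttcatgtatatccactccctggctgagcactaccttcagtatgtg
Bcl2a1a: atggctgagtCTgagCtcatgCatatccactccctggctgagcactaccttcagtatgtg

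Across the whole coding sequence, Bcl2a1b differed from Bcl2a1d at 6 bases and from Bcl2a1a at 11, an identity of 98.8% and 97.9%. Only 20.8% of the windows of 50 bases in the Bcl2a1b transcript occurred in no other annotated gene, and 43.2% of the windows of 100 bases, with Gm29094, described next, among the other genes. Reads that map to several places were not counted by the authors, per the options in the file headers. A second loss applied to Bcl2a1b alone among the copies. The exons of Gm29094, an annotated protein-coding gene on the same strand, cover 401 of its 817 exonic bases, or 49.1%, and read pairs that touch both genes were counted for neither. The other survival genes had 0 bases under a gene on the same strand.

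With these limits, Bcl2a1b had 583, 353, 129 and 419 counts in replicates 1 to 4, or 68.0, 59.6, 55.4 and 58.5 TPM. Bcl2a1d had 1492, 880, 357 and 1022 counts, or 165, 141, 145 and 135 TPM, above Bcl2a1b in every library. The ratio of Bcl2a1d to Bcl2a1b was 2.43 ± 0.136 in TPM (SD, n = 4), with no test run. It was 1.24 ± 0.0693 with the bases under Gm29094 left out of the length of Bcl2a1b. Bcl2a1a had 4, 8, 2 and 0 counts, although 31.0% of its windows of 50 bases and 56.5% of those of 100 bases occurred in no other gene, more than for Bcl2a1b or Bcl2a1d. The intronless Bcl2a1c, with 89.6% of its 50-base windows in no other gene, had 4, 6, 1 and 1 counts. Between libraries, Bcl2a1b and Bcl2a1d were both highest in replicate 1, and the ratio of their counts stayed between 2.44 and 2.77.

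**Figure D2:**
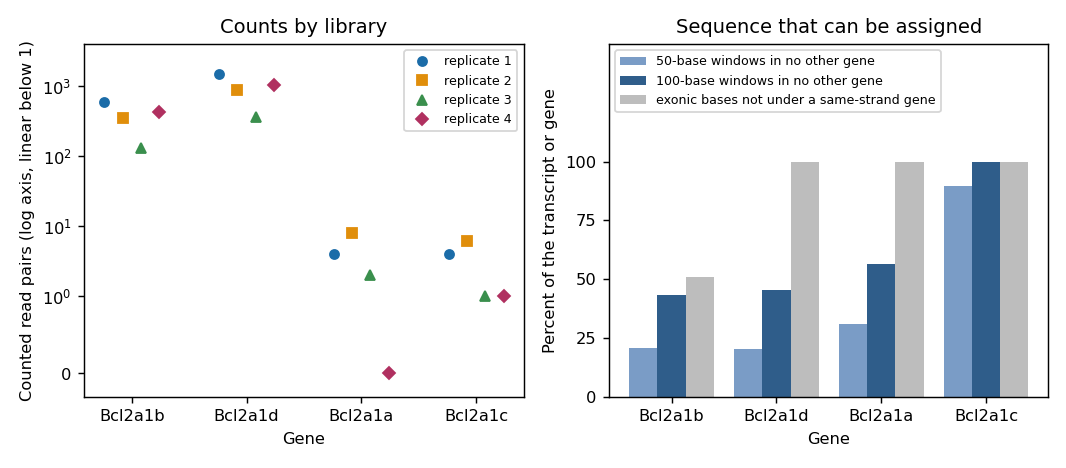
Left, counted read pairs of the 4 Bcl2a1 copies, 1 point per library, on an axis that is logarithmic above 1 and linear below. Right, the percentage of transcript windows of 50 and 100 bases found in no other annotated gene, and of exonic bases not under a gene on the same strand. Bcl2a1b and Bcl2a1d hold 129 to 1492 counts per library and Bcl2a1a and Bcl2a1c at most 8, although Bcl2a1a and Bcl2a1c have more sequence of their own.

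The promoters of these copies were alike as well, as the RefSeq windows from 250 bases before to 50 bases after the annotated start show (build GRCm38.p6). They are printed because the copies they stand before differ in counts. They lie at chr9:89199023-89199322 on the plus strand for Bcl2a1b, chr9:88731801-88732100 on the minus strand for Bcl2a1d and chr9:88956670-88956969 on the plus strand for Bcl2a1a. Capitals mark GAGGAAGT, a purine-rich form of the core bound by ETS factors.
Bcl2a1b: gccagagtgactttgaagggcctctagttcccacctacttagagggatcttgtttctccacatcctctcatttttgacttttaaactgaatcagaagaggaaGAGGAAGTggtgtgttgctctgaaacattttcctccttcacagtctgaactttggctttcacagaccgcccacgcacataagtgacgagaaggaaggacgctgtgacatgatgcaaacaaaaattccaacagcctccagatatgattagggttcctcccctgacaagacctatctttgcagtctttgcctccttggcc
Bcl2a1d: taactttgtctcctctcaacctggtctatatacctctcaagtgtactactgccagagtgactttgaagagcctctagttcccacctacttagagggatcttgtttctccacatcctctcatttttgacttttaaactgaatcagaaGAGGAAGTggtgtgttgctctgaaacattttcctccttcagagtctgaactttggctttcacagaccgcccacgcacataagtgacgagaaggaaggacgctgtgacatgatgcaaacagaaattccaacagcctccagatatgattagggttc
Bcl2a1a: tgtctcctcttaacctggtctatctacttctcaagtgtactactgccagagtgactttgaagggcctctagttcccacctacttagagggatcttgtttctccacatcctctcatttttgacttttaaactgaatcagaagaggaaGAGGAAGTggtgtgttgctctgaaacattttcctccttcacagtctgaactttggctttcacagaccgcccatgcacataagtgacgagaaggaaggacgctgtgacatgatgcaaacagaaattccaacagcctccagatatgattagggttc

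Where the windows overlap, the Bcl2a1b promoter was identical to that of Bcl2a1a at 254 bases and differed at 2. Against Bcl2a1d it was identical at 247 bases, differed at 3 and had a gap of 6. The motif GAGGAAGT was searched on both strands and chosen after the sequences were seen. It was present in each of the 3 windows, and also in that of Bcl2a1c, which is not printed. Of the 32851 promoter windows searched, 3.20% held it. Since the windows of the copies are near-identical, their matches are not separate occurrences to set against that share. A match is a description of the sequence and does not show binding.

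Set against Bcl2, Bcl2a1b did not differ beyond the spread between libraries at the exonic lengths of the files, and other choices of length moved it either way. The difference was -0.10 ± 0.253 log2 units, positive in 2 libraries and negative in 2 (exact sign-flip p = 0.625, adjusted p = 0.625). With the TPM of all 4 copies summed, the copies exceeded Bcl2 by 1.67 ± 0.301 log2 units. With the bases under Gm29094 left out of the length, Bcl2a1b exceeded Bcl2 by 0.86 ± 0.254. In the other direction, the difference was -0.44 ± 0.253 with the longest transcript of each gene and -3.50 ± 0.255 on CPM (exact sign-flip p = 0.13 in each of these 4 settings). The order of these genes is therefore not settled. The level of 60.4 ± 5.39 TPM (SD, n = 4) for Bcl2a1b leaves out the reads shared with the copies or with Gm29094. Such reads were counted for no gene, so the sum over the copies leaves them out as well.

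Of the effectors, Bax had TPM close to those of Mcl1, and Bak1 lay between Bcl2l1 and Bcl2. With the longest transcript as the length, Bax averaged 317 TPM and Mcl1 202 TPM, and on CPM, unscaled by length, 134 and 266. Bax encodes a protein that moves from the cytosol into the mitochondrial membrane to form pores. It lies on chromosome 7 from 45461697 to 45466898 (ENSMUSG00000003873.11) and had 294, 305, 274 and 243 TPM in replicates 1 to 4, lowest in replicate 4. Bak1 encodes the effector that resides in that membrane. Located at 27019810 to 27029009 of chromosome 17 (ENSMUSG00000057789.13), it had 156, 161, 150 and 162 TPM. The ranges did not overlap, and Bax exceeded Bak1 by 0.82 ± 0.157 log2 units (SD, n = 4) in 4 of 4 libraries, or 1.78 ± 0.185 times in TPM (exact sign-flip p = 0.13, adjusted p = 0.139). On CPM the difference was 0.21 ± 0.157 (exact sign-flip p = 0.25). A same-strand gene without counts, Gm45808, covers 12.2% of the exonic bases of Bax, which sets Bax too low if anything. On the opposite strand, Ggnbp1 covers 14.8% of the bases of Bak1, and the strand-specific counting keeps their reads apart.

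In TPM, all 4 BH3-only genes were lower than each survival gene and each effector. On CPM, unscaled by length, Pmaip1 averaged 27.9, above Bcl2a1b at 15.0. Pmaip1 encodes NOXA, a p53 target that binds MCL-1 and A1. It lies on chromosome 18 from 66458604 to 66465550 (ENSMUSG00000024521.7). Its level was the highest of the BH3-only genes at 36.5, 32.6, 32.8 and 36.4 TPM in replicates 1 to 4. Bbc3 encodes PUMA, another p53 target, which binds every survival protein. It lies on chromosome 7 from 16308393 to 16318205 (ENSMUSG00000002083.13) and had 22.4, 22.7, 19.2 and 19.2 TPM. Bid encodes a protein that caspase-8 cleaves, which joins the death receptor pathway to the mitochondria. Located at 120891930 to 120916853 of chromosome 6 (ENSMUSG00000004446.12), it had 10.8, 10.1, 10.8 and 8.90 TPM. Bcl2l13 lies opposite 17.7% of the exonic bases of Bid, a neighbour that is itself in the family.

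Bcl2l11 was the lowest of the 10, at 3.28, 3.75, 3.45 and 4.49 TPM in replicates 1 to 4. It encodes BIM and lies on chromosome 2 from 128126038 to 128162547 (ENSMUSG00000027381.16). Its counts were 276, 218, 79 and 316, so the 95% exact Poisson interval was 2.73 to 4.30 TPM in replicate 3, the shallowest library, and 4.01 to 5.01 TPM in replicate 4. Pmaip1 exceeded Bcl2l11 by 2.91 ± 0.159 log2 units, Bbc3 by 2.21 ± 0.246 and Bid by 1.23 ± 0.275 (SD, n = 4). Each of these differences was positive in 4 of 4 libraries (exact sign-flip p = 0.13, adjusted p = 0.139). Without length scaling, on CPM, Pmaip1 exceeded Bcl2l11 by 1.51 ± 0.178 and Bbc3 by 0.52 ± 0.263, while Bid minus Bcl2l11 was 0.24 ± 0.297, within its spread (exact sign-flip p = 0.25). Bcl2l11 had 0.0578 ± 0.00623 times the TPM of Bcl2, a difference of -3.80 ± 0.156 log2 units, negative in 4 of 4 libraries with the same p. The exons of all annotated Bcl2l11 transcripts add up to 8029 bases while the longest transcript has 5036, and with that length its mean level was 4.72 TPM.

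**Figure D3:**
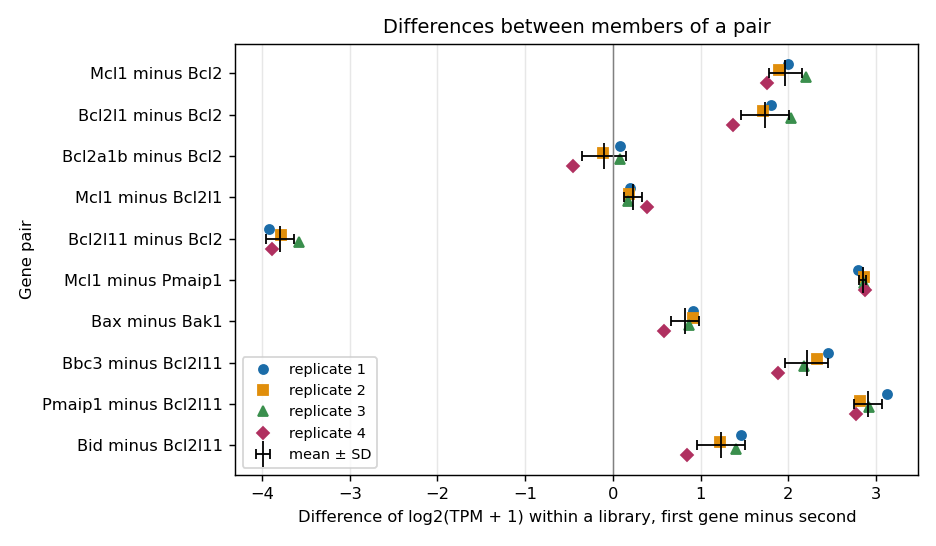
Difference of log2(TPM + 1) between the genes of each pair within a library, first gene minus second, with 1 point per library and the mean ± SD. Of the 10 pairs, 9 keep 1 sign in all 4 libraries, and Bcl2a1b minus Bcl2 lies at -0.10 ± 0.253.

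Mcl1 and Pmaip1, which encode a survival protein and a BH3-only protein that binds it, had a ratio that varied little between libraries. Counting error alone would give coefficients of variation of 1.43% for Mcl1 and 4.42% for Pmaip1. The spread of the ratio was no wider than counting error can give, and whether the 2 genes move together was not tested. The ratio of Mcl1 to Pmaip1 was 7.08, 7.45, 7.48 and 7.53 in replicates 1 to 4, and the difference of 2.85 ± 0.0397 log2 units had the smallest SD of the 10 pairs over all 4 libraries (exact sign-flip p = 0.13, adjusted p = 0.139). That place rests on replicate 4, without which the SD was 0.0418 for Mcl1 minus Pmaip1, 0.0083 for Mcl1 minus Bcl2l1 and 0.0288 for Bax minus Bak1. By comparison, the ratio of Bcl2l1 to Bcl2 was 3.53, 3.32, 4.15 and 2.61.

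Ordered by mean TPM, the genes ran Bax, Mcl1, Bcl2l1, Bak1, Bcl2, Bcl2a1b, Pmaip1, Bbc3, Bid and Bcl2l11. Of the 9 pairs of neighbours, 7 differed in 1 direction in 4 of 4 libraries by more than the SD of the difference, and their ranges did not overlap. The order was taken from these same libraries, so this describes it and does not test it. Among the 7 is Mcl1 over Bcl2l1, which turned with the longest transcript as the length, as given above. Bax and Mcl1 did not differ beyond their spread, with Bax higher in 3 of 4 libraries by 0.13 ± 0.212 log2 units. Bcl2 and Bcl2a1b, described above, were the other such neighbours. This order is that of TPM, and on CPM Bcl2 averaged 182, above Bax and Bak1 (134 and 115).

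Summed by role, the 4 survival genes had 616, 581, 569 and 623 TPM in replicates 1 to 4. The BH3-only genes summed to 72.9, 69.2, 66.1 and 69.1 TPM, and the effectors to 450, 466, 424 and 405 TPM. The survival sum was 8.62 ± 0.282 times the BH3-only sum and 1.37 ± 0.121 times the effector sum (SD, n = 4, described with no test). Mcl1 made up 42.7% ± 1.06 of the survival sum, Bcl2l1 36.3% ± 1.88, Bcl2 10.9% ± 1.56 and Bcl2a1b 10.1% ± 0.719. The share of Bcl2a1b counts that copy alone, with the losses described above. The 4 Bcl2a1 copies summed to 208 ± 17.7 TPM, against 217 ± 6.81 TPM for Bcl2l1, and the sum over the copies still leaves out the reads that were not counted. Of the BH3-only sum, Pmaip1 took 49.9% ± 2.31, Bbc3 30.1% ± 2.20, Bid 14.6% ± 1.39 and Bcl2l11 5.41% ± 0.831.

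The spread between libraries was tested across all genes, with edgeR's quasi-dispersion of each gene set against the trend at its abundance. Of 12156 genes tested, 1 was called at an adjusted p of 0.05, Xist, which is 0.00823% of them, and 596 had an unadjusted p under 0.05. None of the 10 genes was called. The filter on low counts takes out genes near 0 in some libraries. Without it, 126 of the 21299 genes with a count were called, 0 of the 10 among them. The test had little power, since Bnip3, 3.16 times higher in replicate 4 than in replicate 3, was not called (edgeR adjusted p = 0.289). A gene that was not called is therefore not shown to be stable. By that edgeR test, 1 of the 10, Bcl2, had an unadjusted p under 0.05 (adjusted p = 0.875). It ranked 178 among all genes, and the next of the 10 was Bax (edgeR adjusted p = 0.991). DESeq2 marked 111 of the 21299 genes with a count as dispersion outliers, and 0 of the 10. With so small a share of all genes marked, 0 of 10 says little about these genes. The median coefficient of variation of normalised CPM was 8.84% for the 10 genes and 7.91% for all tested genes, and 6 of the 10 lay above the median of all genes.

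Bcl2 had the widest spread of the 10, a coefficient of variation of 17.7% in TPM where counting error alone would give 1.79%. Set against the average of the remaining libraries, Bcl2 stood at 0.41 in replicate 4 and at -0.38 in replicate 3 (difference in normalised log2(CPM + 1)). Bcl2l11 stood at 0.32 in replicate 4, where Bax stood at -0.27 and Bid at -0.24. The median of all tested genes lay within 0.0020 of 0 in each library. The ratio of Bcl2 to Bax, chosen after the values were seen, was 0.217, 0.212 and 0.191 in replicates 1 to 3 and 0.330 in replicate 4. At the other end, Bcl2l1 and Bak1 varied by 3.14% and 3.52%, with counting error alone at 1.33% and 2.17%. For Bid, whose TPM varied by 8.70%, counting error alone would give 6.92%, a value close to the observed spread.

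**Figure D4:**
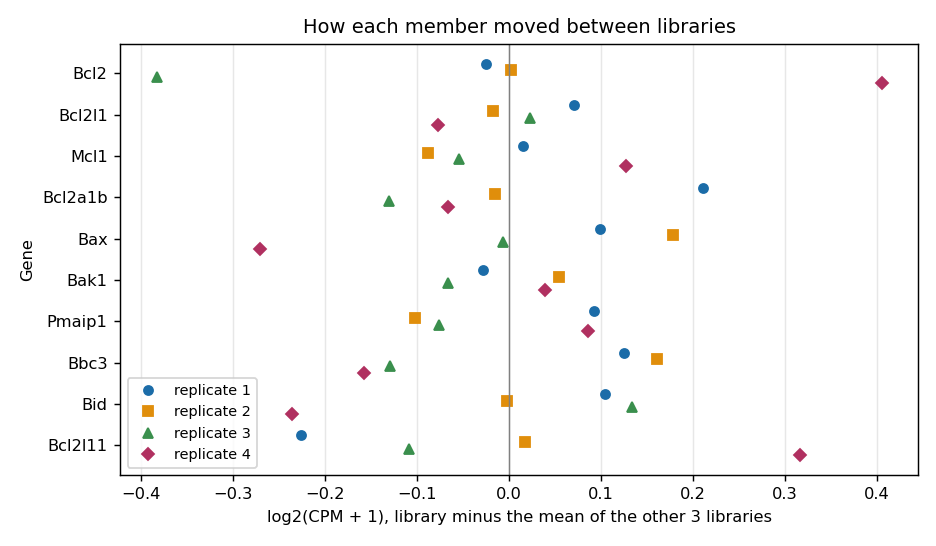
Shift of each gene in each library from the mean of the other 3 libraries, in log2(CPM + 1). Bcl2 lies at 0.41 in replicate 4 and -0.38 in replicate 3, whereas every shift of Bcl2l1 and Bak1 lies within 0.08 of 0.

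Some other genes had their extremes in the same libraries, and were chosen for that after their values were seen. Bnip3 and Bnip3l, BH3-related mitophagy genes known to be induced by low oxygen, were measured at 97.9, 104, 60.4 and 191 TPM for Bnip3 and 81.7, 87.7, 51.5 and 124 TPM for Bnip3l, lowest in replicate 3 and highest in replicate 4 as Bcl2 was. Il7r, the receptor of the cytokine known to sustain BCL-2, had 81.6, 86.6, 77.2 and 121 TPM with the same extremes. The summed T-cell markers had the same extremes too, at 2844, 2687, 2575 and 2919 TPM, a narrower span. The opposite was seen for Il6st, the shared receptor chain of the interleukin 6 family, with 33.9, 31.1, 42.0 and 25.4 TPM, and the summed Th17 markers were lowest in replicate 4. None of these genes was called (edgeR quasi-dispersion test, adjusted p = 0.289, 0.425, 0.806 and 0.679 for Bnip3, Bnip3l, Il7r and Il6st), and their part in the spread of Bcl2 was not tested.

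Of the 17 other genes of the family or named for it, 11 reached 1 TPM in every library and 0 were called as variable. Bcl2a1d led at 146 ± 12.9 TPM, followed by Bnip3 and Bnip3l. The survival gene Bcl2l2, which encodes BCL-W, had 27.7 ± 2.69 TPM, between Pmaip1 and Bbc3. The other BH3-only genes Bad, Bik and Bmf had 30.8 ± 1.74, 22.9 ± 4.40 and 2.23 ± 0.840 TPM, and Hrk had 0 counts. With Bad, Bik, Bmf and Hrk added, the survival sum of the 4 members was 4.77 ± 0.173 times the BH3-only sum. Only the BH3-only side was widened here, and the survival genes Bcl2a1d and Bcl2l2 were left out, which sets this ratio lower. The effector-like gene Bok had 5.18 ± 0.413 TPM, against 157 ± 5.54 TPM for Bak1. Below 1 TPM in the mean were Bcl2a1a, Bcl2a1c, Bcl2l10, Bcl2l15 and Hrk.

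Downstream, all 11 genes of the apoptosome and caspase list and all 5 caspase inhibitors reached 1 TPM in every library. Cycs, which encodes cytochrome c, had 101 ± 5.61 TPM, and the protease gene Htra2 94.5 ± 6.91 TPM. The initiator caspase gene Casp9 had 12.5 ± 1.55 TPM (SD, n = 4). Apaf1, the scaffold that gathers caspase-9, had 34.6 ± 1.86 TPM. Among the inhibitors, Birc5, which encodes survivin and also acts in mitosis, was highest at 167 ± 4.59 TPM, above Birc3 at 75.9 ± 2.80 TPM and Xiap at 38.8 ± 0.624 TPM. Of the ligase and deubiquitinase genes that act on MCL-1 or BIM, Huwe1 had 87.7 ± 3.66 TPM, Usp9x 39.8 TPM and Fbxw7 16.5 ± 1.04 TPM, while Trim17 held 1 count over all libraries.

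Upstream, the regulator list had a median of 109 TPM with all 11 genes at 1 TPM or more in every library. Trp53 had 154 ± 4.66 TPM and its targets Cdkn1a and Mdm2 526 ± 58.4 and 109 ± 2.88 TPM (SD, n = 4). Atf4, a stress factor, led at 829 ± 32.4 TPM, and the NF-kB gene Rela had 156 ± 6.64 TPM. Foxo1 and Foxo3, which drive Bcl2l11 when cytokines are withdrawn, had 45.1 ± 2.39 and 21.3 ± 2.27 TPM. Of the receptors for survival cytokines, Il2ra, Il2rb and Il2rg had 1539 ± 63.5, 922 ± 18.5 and 393 ± 30.4 TPM, against 91.6 TPM for Il7r. In the death receptor arm, Casp8, whose product cleaves BID, had 176 ± 17.4 TPM, against 10.1 ± 0.881 TPM for Bid, and Tnfrsf10b and Ripk1 had 55.3 ± 3.50 and 48.0 ± 1.54 TPM. Fas had 19.6 ± 2.15 TPM and its ligand gene Fasl 2.73 ± 1.24 TPM.

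**Figure D5:**
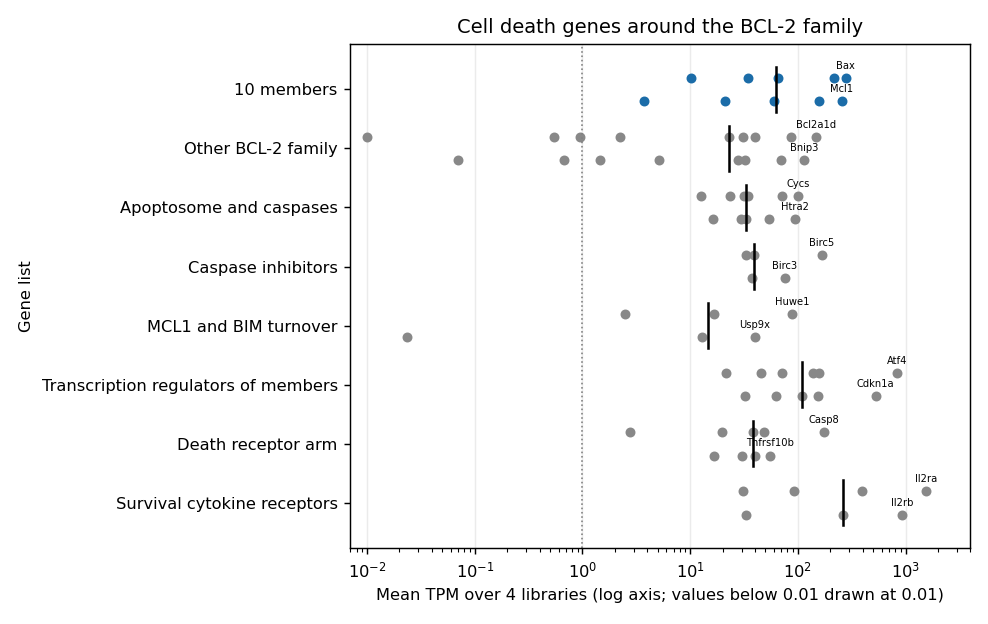
Mean TPM over the 4 libraries for each gene of 8 lists on a log axis, with the median of each list as a bar and a dotted line at 1 TPM. The 10 members have a median of 62.8 TPM, the other family genes 22.9 TPM, and the 2 highest genes of each list are named.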

How the data were processed

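Per the file headers, the authors used featureCounts 1.4.6-p4 to count read pairs with both mates aligned over the exons of each gene (GENCODE mouse release 13, stranded option 2). No option for multi-mapping reads or for overlapping genes was set. The deposited values are whole-number counts, not normalised. The build is mm10 per the labels, and no aligner version is named. The authors' files also give the exonic length of each gene. Symbols came from GENCODE release 21, found for 50376 of 50600 identifiers.

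TPM were computed from counts and exonic lengths. Pairs were tested by exact sign-flip permutation over the 4 libraries. Variation used edgeR 4.0.16 with an intercept alone (TMM, filterByExpr, upper F tail, Benjamini-Hochberg adjustment over 12156 genes, threshold 0.05). Its prior degrees of freedom were 4.77. The test was also run on simulated data, with the outcome not given here. DESeq2 1.42.0 was an alternative. Intervals cover counting error only, and a count of 0 allows up to 3 counts. Window uniqueness was measured against GENCODE release 21 transcripts, not the genome, on both strands, and alignments used Biopython 1.88. Named are the 10 members, and, of the wider lists, the 3 highest, those under 1 TPM and others whose role is described. The result of 1 gene of these lists is not reported here. Members and lists were chosen with earlier results of these data known. No protein sequences were used here, and no likeness search over other genes was made, since 4 libraries are too few.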

Additional observations from a re-analysis of the deposited data

Results flagged for a closer look

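In 8 of the 81 values tested, 1 library stood apart from the other 3, by the gap to its nearest neighbour over the whole range (Dixon's rule at 95%). Chance flags about 1 in 20 such groups. For Mcl1 minus Bcl2l1 the gap was 0.923 of the range, with replicate 4 at 0.39 log2 units and the others at 0.17 to 0.19. For Bax minus Bak1 it was 0.844, with replicate 4 at 0.59 and the others at 0.87 to 0.92.

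Around the family, Becn1 was apart in replicate 3 (0.831 of the range, 73.7 TPM above 68.5 to 69.4). Apaf1 was apart in replicate 3 as well (0.941, 31.8 TPM below 35.5 to 35.7). Birc2 (0.905, 35.5 TPM above 31.6 to 32.0), Trp53 (0.896, 147 TPM below 156 to 157) and Nfkb1 (0.855, 152 TPM above 133 to 136) were apart in replicate 4. Relb was apart in replicate 2 (0.874, 68.3 TPM above 61.0 to 61.9). None of these 6 genes was called as variable by edgeR.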

How the results depend on the processing

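Over the 10 gene pairs, 68 of 73 alternative settings kept the direction, though not the size. CPM is not scaled by length and narrowed most differences, as given in the results. Many of the settings that kept the direction could not have turned it. A pair with 1 sign in every library keeps it when a replicate is left out or a smaller constant is added to TPM. The pairs that turned were Mcl1 minus Bcl2l1, at -0.19 on CPM and -0.60 with the longest transcript, and Bcl2a1b minus Bcl2, at 1.67 with the copies summed and 0.86 with shared bases left out of the length (the last added after seeing the data). The longest transcript is 2568 bases for Bcl2l1 and all exons 4586, which sets that change. Leaving out 1 replicate, Bcl2a1b minus Bcl2 ran from -0.16 to 0.02, positive only without replicate 4 (0.020). Each of the other 9 pairs had 1 sign in every library, so its sign could not change.

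The log2 ratio of survival to BH3-only sums was 3.11, against 3.64 on CPM, 3.32 with the longest transcript, 3.43 with the copies summed and 3.24 without shared bases. For survival over effectors it was 0.45, against 1.62 on CPM and 0.77 with the copies summed. Leaving out 1 replicate gave 3.08 to 3.12 and 0.40 to 0.50. In the order of levels, 8 of 10 genes held their place with the longest transcript, 8 without shared bases and 4 on CPM, which is not scaled by length. Without 1 replicate, 8 to 10 did, with Bcl2 and Bcl2a1b trading places without replicate 4.

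No setting called any of the 10 genes as variable. The number of all genes called was 1, against 126 without a filter, 5 with a mean count of at least 50 and 111 DESeq2 dispersion outliers, and 1 to 20 when leaving out 1 replicate, 20 being without replicate 4. No paired comparison between groups was possible because there is 1 group, and the gene pairs were compared within each library. Depth limits Bcl2l11 and Bid most, with 79 and 109 counts in replicate 3.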
